A study of Homo sapiens with 4 samples.

Results

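The PEG3 side of 19q13.43 was taken as the CpGs of chromosome 19 from position 57000000 to 58150000 of the hg19 build, a window of 1.15 Mb near the end of the long arm. It holds 15692 of the 27710999 CpGs that had reads on the autosomes and the X chromosome, and 230 of their 567027 tiles of 5 kb. CpG methylation (mCG) was measured by enzymatic methyl-seq (EM-seq) in HEK293T cells, a human embryonic kidney line that carries the SV40 large T antigen. There were 2 WT libraries and 2 ZNF274KO libraries, and the groups differ in genotype alone by their labels. ZNF274 had been deleted with Cas9 and a pair of guides, and single cells were then sorted. The labels do not say whether WT 1 and WT 2, or ZNF274KO 1 and ZNF274KO 2, came from separate clones or cultures, so the tests measure only the spread between these libraries, which may be technical. The level of a region was the share of its reads over CpGs that read as methylated, and the window was chosen by position, not by its values.

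KRAB zinc finger proteins (KZFPs) bind DNA through arrays of C2H2 fingers and recruit corepressors through the KRAB domain, and their genes arose by tandem duplication, so that neighbours resemble each other, above all in the long exon at the end of the gene that encodes the fingers. ZNF274 is a KZFP known to bind the finger exons of other zinc finger genes. In the middle of the window lies an imprinted domain: in most tissues the promoter shared by PEG3, ZIM2 and the noncoding MIMT1 is methylated on the maternal chromosome, and the paternal copy is the one transcribed. Reads summed over both parental chromosomes, as here, cannot be assigned to either.

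The following 4 stretches carry the results given further on, all in GRCh37/hg19 on chromosome 19. The PEG3 promoter, the imprinted promoter of the window, is shown as the 250 bases before the annotated start (chr19:57352097-57352346, minus strand), with CpGs in capitals. MIMT1 begins within it on the other strand.
PEG3 promoter: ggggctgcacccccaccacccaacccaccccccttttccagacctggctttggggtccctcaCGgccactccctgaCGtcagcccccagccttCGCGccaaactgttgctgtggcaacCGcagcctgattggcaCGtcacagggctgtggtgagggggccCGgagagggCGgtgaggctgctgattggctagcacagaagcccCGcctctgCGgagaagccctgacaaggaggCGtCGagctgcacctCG
The finger exon of ZNF471 is shown because its level rose, as the 300 coding bases with most CpGs (chr19:57036390-57036689, plus strand, CpGs in capitals).
ZNF471 finger exon: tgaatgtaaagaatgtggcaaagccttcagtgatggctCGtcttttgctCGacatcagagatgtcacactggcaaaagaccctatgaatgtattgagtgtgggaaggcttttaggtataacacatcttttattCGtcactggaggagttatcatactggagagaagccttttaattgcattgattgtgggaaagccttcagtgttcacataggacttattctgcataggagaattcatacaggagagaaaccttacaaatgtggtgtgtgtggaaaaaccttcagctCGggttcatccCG
The same stretch of ZNF460 stands for the finger exons that were methylated in all 4 libraries (chr19:57803267-57803566, plus strand, CpGs in capitals).
ZNF460 finger exon: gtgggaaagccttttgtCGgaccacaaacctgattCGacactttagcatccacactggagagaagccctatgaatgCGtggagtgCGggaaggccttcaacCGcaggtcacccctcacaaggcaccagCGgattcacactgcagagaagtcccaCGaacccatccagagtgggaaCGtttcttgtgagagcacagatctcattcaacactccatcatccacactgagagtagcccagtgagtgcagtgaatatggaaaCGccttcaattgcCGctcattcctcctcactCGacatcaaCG
The last stretch lies in the first intron of PEG3 (chr19:57350253-57350552, printed on the plus strand, against the direction of PEG3), where the core motif of the factor YY1 recurs. Its capitals mark the matches to AANATGGC.
PEG3 first intron: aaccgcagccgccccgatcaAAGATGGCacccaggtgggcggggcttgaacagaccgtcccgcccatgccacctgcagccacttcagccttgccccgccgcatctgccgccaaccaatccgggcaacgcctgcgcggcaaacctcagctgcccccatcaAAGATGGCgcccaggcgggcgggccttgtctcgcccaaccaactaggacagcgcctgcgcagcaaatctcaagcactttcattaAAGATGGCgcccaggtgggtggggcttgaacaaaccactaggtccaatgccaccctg
In the ZNF471 stretch, with 5 CpGs, the levels were 1.8% and 0.0% in WT 1 and WT 2 and 27.1% and 10.3% in ZNF274KO 1 and ZNF274KO 2, over 30 to 55 reads. In the ZNF460 stretch, with 12 CpGs, they were 93.8%, 93.2%, 95.9% and 93.8% in the same order. The PEG3 promoter stretch stood at 70.1%, 73.0%, 81.8% and 77.8%, and the intron stretch at 78.4%, 70.7%, 74.2% and 71.4%. The ZNF471 stretch was thus nearly unmethylated in WT and partly methylated in both ZNF274KO libraries, where the others stood at 70.1% or more in every library. The PEG3 promoter stretch was also higher in both ZNF274KO libraries than in WT.

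The libraries held 241598512 to 295114493 reads over CpGs, with a median depth per CpG of 8 to 10, and genome-wide levels of 58.4% to 60.4% that overlapped between groups. Over the ZNF274 gene itself there were 5158 and 4274 such reads in WT 1 and WT 2, 0 in ZNF274KO 1 and 14 in ZNF274KO 2. Within the window the libraries had 155575, 128813, 121184 and 106839 reads, or 9.91, 8.21, 7.72 and 6.81 per CpG. The share of a library's reads that fell in the window was 0.852 and 0.856 times the WT mean in ZNF274KO 1 and ZNF274KO 2, against 0.902 and 0.888 times over the rest of chromosome 19. The part of this lower depth in the results was not tested.

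mCG over the whole window was higher in the ZNF274KO libraries, and the size of the difference varied along it. The window stood at 36.3% and 36.6% in WT 1 and WT 2 and at 43.1% and 39.3% in ZNF274KO 1 and ZNF274KO 2, a difference of 4.79 percentage points between the means (WT 36.4% ± 0.220, ZNF274KO 41.2% ± 2.74, SD, n = 2). It was 2.86 points without ZNF274KO 1 and 6.73 points without ZNF274KO 2. The groups did not overlap, and ZNF274KO 1 lay well above ZNF274KO 2. An exact permutation test, two-sided, gave p = 0.333, which is the smallest value that 2 against 2 libraries allow, here and in every test of a level below. The window was less methylated than the rest of chromosome 19, which stood at 63.2%, 62.4%, 66.8% and 64.2%.

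The window was divided into 5 blocks by its genes. In the block from ZNF471 to ZNF835, at the centromere side, mCG was 29.1%, 30.2%, 42.2% and 36.7% in WT 1, WT 2, ZNF274KO 1 and ZNF274KO 2, the largest difference of the 5 (9.81 points). The block of ZIM2, PEG3 and MIMT1 stood at 18.2%, 18.5%, 19.4% and 18.7%, which differed by 0.692 points (0.334 without ZNF274KO 1 and 1.05 without ZNF274KO 2). The block of USP29, ZIM3 and DUXA stood at 16.6%, 17.0%, 24.9% and 18.9%, a difference of 5.15 points that was 2.15 without ZNF274KO 1 and 8.15 without ZNF274KO 2. The block from ZNF264 to ZNF749 was the most methylated, at 63.6%, 63.1%, 66.0% and 62.6%, and its groups overlapped. The difference there was 0.998 points with all libraries (exact permutation p = 1.0) and -0.703 points without ZNF274KO 1. The block from VN1R1 to ZNF134 stood at 49.6%, 49.6%, 56.8% and 54.2%, a difference of 5.96 points. The difference was largest in the ZNF471 to ZNF835 block, also with any 1 library left out, and the PEG3 block and the block from ZNF264 to ZNF749 had the smallest, in an order that changed with the library left out. Set against each other within each library, the ZNF471 to ZNF835 block exceeded the PEG3 block by 10.9 and 11.7 points in WT and by 22.8 and 18.1 points in ZNF274KO, and the groups did not overlap (exact permutation p = 0.333). This shift, 9.12 points, is the gap between their block differences given above, and was the largest among the 10 pairs of blocks. It was not the largest without ZNF274KO 1 or without WT 2, where the block from ZNF264 to ZNF749 had the smallest difference (-0.703 and 0.719 points). In 2 pairs the groups overlapped (exact permutation p = 1.0): the PEG3 block less the block from ZNF264 to ZNF749 shifted by -0.305 points, and the block of USP29, ZIM3 and DUXA less that from VN1R1 to ZNF134 by -0.817 points.

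**Figure D1:**
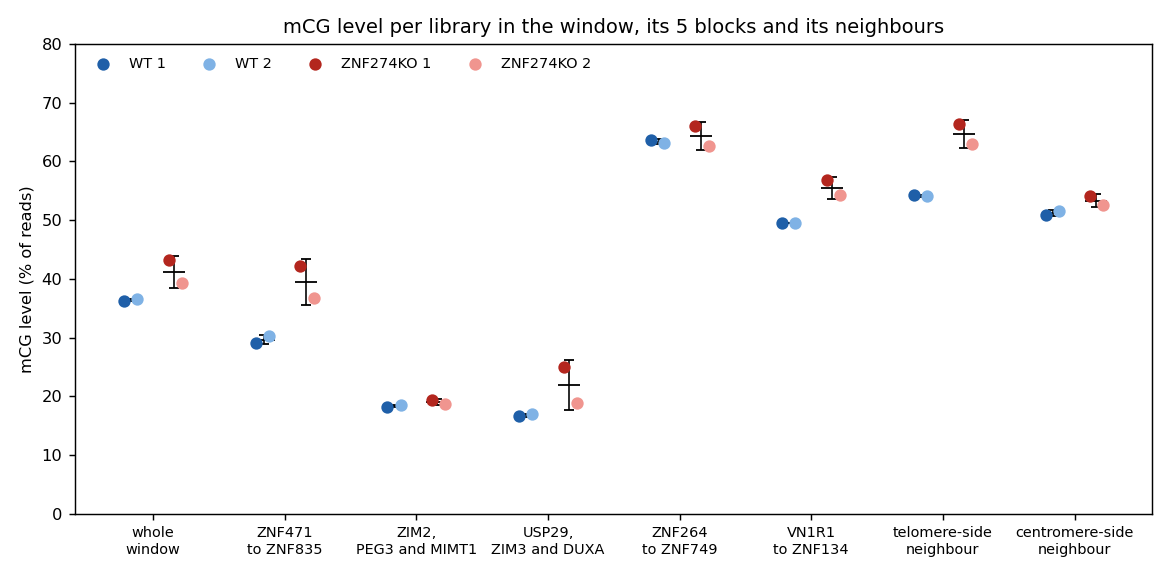
mCG level (% of reads over CpGs) of each library in the whole window, its 5 blocks and the neighbouring stretches of chromosome 19, with points for libraries, bars at the group mean and whiskers of 1 SD (n = 2). The ZNF471 to ZNF835 block stood at 29.1% and 30.2% in WT and 42.2% and 36.7% in ZNF274KO, and the block of ZIM2, PEG3 and MIMT1 stayed between 18.2% and 19.4%.

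At the scale of 5 kb, 27 of the 230 tiles were called higher in ZNF274KO and 0 lower (quasi-likelihood test of edgeR on methylated and unmethylated reads, adjusted p under 0.05 over 563514 tiles). Over all tiles tested in the genome, 0.473% were called higher and 0.0122% lower. Chromosome 19 differed from the rest of the genome in this, since 1264 of the 10911 tiles outside the window, 11.6%, were also called higher, a share near the 11.7% of the window. The median tile differed by 2.12 points in the window and by -0.582 points over all tiles. In 106 tiles of the window the ZNF274KO libraries lay entirely above WT, where this held for 13.5% of all tiles, and in 27 entirely below, against 22.3%. The 27 called tiles had mean levels of 19.7%, 19.7%, 50.3% and 40.4% in WT 1, WT 2, ZNF274KO 1 and ZNF274KO 2. ZNF274KO 1 exceeded ZNF274KO 2 in 26 of them, and in 183 of all 230 tiles. At an unadjusted p under 0.05 there were 96 tiles, and 2568 of the 10911 on the rest of chromosome 19. The count was 44 without ZNF274KO 2, 19 without ZNF274KO 1, and 4 with limma on log2 ratios.

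**Figure D2:**
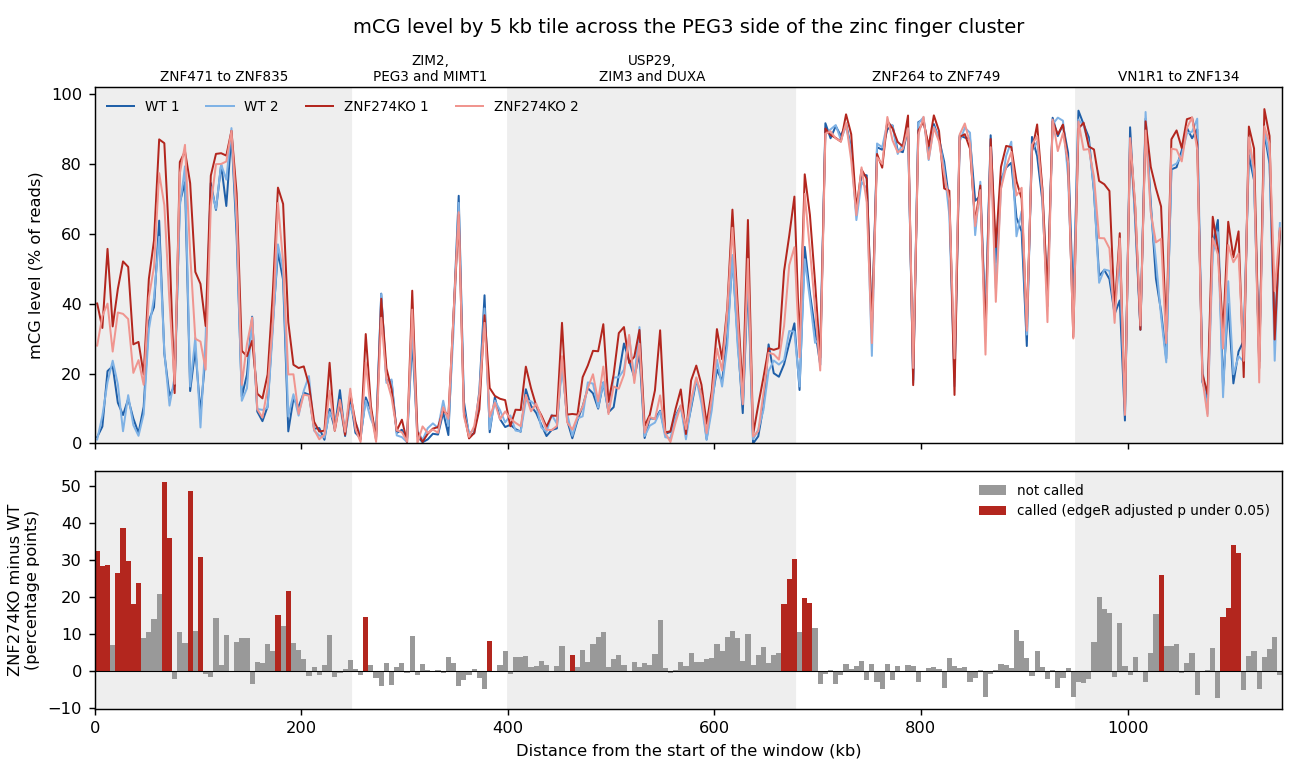
Upper panel: mCG level (% of reads over CpGs) of each 5 kb tile in the 4 libraries against the distance from the start of the window in kb. Lower panel: ZNF274KO minus WT in percentage points, with the 27 tiles called by edgeR in red and the 5 blocks shaded in turn. The called tiles stand in clusters at the left end, between 665 and 695 kb (DUXA and the sequence after it) and between 1090 and 1110 kb (ZIK1 and the sequence after it), and single ones lie between.

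Called tiles came in runs: 19 of the 27 lay in 6 runs of adjacent tiles and 8 stood alone. The longest run, chr19:57020001-57045000, covered ZNF471, and a run of 3 tiles at the edge of the window (chr19:57000001-57015000) was parted from it by 1 tile. Over the 5 tiles of the ZNF471 run, the levels were 8.56%, 8.14%, 39.3% and 29.8% in WT 1, WT 2, ZNF274KO 1 and ZNF274KO 2. Within it, the tile at chr19:57025001-57030000 went from 8.13% and 3.49% to 52.1% and 37.1%, a rise of 38.8 points (edgeR adjusted p = 0.00031), and the tile after it from 12.7% and 13.8% to 50.6% and 35.6% (29.8 points, edgeR adjusted p = 0.0055). This tile and the first of the run were not called without ZNF274KO 1. The edge run rose from 11.0% and 10.1% to 43.9% and 36.0%. Both runs were low in WT and higher in each ZNF274KO library, with no overlap. The first tile of the window went from 1.82% and 1.15% to 40.1% and 28.0% (edgeR adjusted p = 1.1e-05), and the rise did not begin at the edge: the pair of tiles just before it stood at means of 27.9% and 3.62% in WT and 50.4% and 29.6% in ZNF274KO, with edgeR adjusted p = 0.0012 and 0.0026. At the other edge, the tiles just inside were not called, at means of 27.4% and 62.3% in WT and 36.7% and 61.2% in ZNF274KO, and those just outside were not called either, at 76.2% and 55.9% in WT and 79.8% and 76.2% in ZNF274KO.

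The tile with the largest rise, chr19:57065001-57070000, holds the finger exon of ZFP28, a KZFP gene conserved across mammals. It stood at 25.8% and 26.3% in WT 1 and WT 2 and at 86.0% and 68.2% in ZNF274KO 1 and ZNF274KO 2, a rise of 51.1 points (WT 26.0% ± 0.358, ZNF274KO 77.1% ± 12.6, SD, n = 2, edgeR adjusted p = 7.2e-05). The tile after it, which overlaps no protein-coding gene, went from 13.7% and 10.8% to 56.1% and 40.4%. The next in size, chr19:57090001-57095000 just beyond the finger exon of ZNF470, held 23 CpGs and rose from 15.0% and 16.3% to 74.5% and 54.4%, or by 48.8 points (edgeR adjusted p = 0.0005). The tile at chr19:57100001-57105000, at the end of ZNF470, rose from 8.75% and 4.58% to 45.7% and 29.2%. Over ZNF835, the tile at chr19:57175001-57180000 was at a mean of 55.9% in WT and rose by 15.2 points, to 73.3% and 68.9% in ZNF274KO 1 and ZNF274KO 2, and was not called without ZNF274KO 1 (edgeR adjusted p = 0.17). In all of these the WT libraries stayed close together, and the distance between the ZNF274KO libraries was larger than that between the WT libraries.

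Beyond ZNF835, called tiles were sparse until DUXA, which encodes a double homeobox protein of the family active in the early embryo. Its 3 tiles (chr19:57665001-57680000) rose from 28.3% and 29.1% to 59.2% and 46.4%, but the first of them was not called without ZNF274KO 1 (10.4 in place of 18.2 points, edgeR adjusted p = 0.49). The one at the DUXA start was at 34.4% and 32.0% in WT and 70.7% and 56.2% in ZNF274KO, a rise of 30.2 points (edgeR adjusted p = 0.0009). The pair of called tiles between DUXA and ZNF264 (chr19:57685001-57695000) were at 50.6%, 47.1%, 71.6% and 63.5%, and the calls ended before ZNF264 itself. The second of the pair was not called without ZNF274KO 1 (edgeR adjusted p = 0.41). On the telomere side lies ZIK1, a KZFP gene whose start overlaps that of ZNF416. The 4 tiles over it and the sequence just after it (chr19:58090001-58110000) rose from 25.6% and 26.8% to 49.2% and 44.5%. The tile with the ZIK1 finger exon was at 17.2% and 19.8% in WT and at 53.4% and 51.9% in ZNF274KO (edgeR adjusted p = 0.0002). Here the ZNF274KO libraries were nearly equal. The tile after the one with the finger exon lies mostly beyond the end of ZIK1, at position 58105258. It went from a mean of 25.7% in WT to 60.7% and 54.4% in ZNF274KO 1 and ZNF274KO 2, or by 31.9 points (edgeR adjusted p = 0.00034). The other tiles of the run were not called when CpGs needed at least 3 reads in every library (edgeR adjusted p = 0.11 and 0.13), and the second of them was not called without ZNF274KO 1 or without WT 1 either (edgeR adjusted p = 0.29 and 0.099).

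The called tiles were counted by their level in WT, as a description, since that level is part of the difference tested. Of the 105 tiles of the window below 20% in WT, 17 were called, and of the 50 between 20% and 50%, 8 were, where 827 of 107203 tiles of the genome in that range were called higher. Of the 33 between 50% and 80%, 2 were called, against 259 of 213790 called higher in the genome, and of the 42 above 80%, 0 were. Of the 134996 tiles of the whole genome above 80%, 1 was called higher and 23 lower. At WT levels below 20%, 12 of the 31 tiles of the ZNF471 to ZNF835 block were called, 2 of 25 in the PEG3 block, 1 of 41 in the block of USP29, ZIM3 and DUXA, 0 of 3 in the block from ZNF264 to ZNF749 and 2 of 5 in the block from VN1R1 to ZNF134. Between 20% and 50% the counts were, in the same order, 1 of 9, 0 of 4, 3 of 14, 1 of 9 and 3 of 14. Over all tiles of the genome below 20%, 1580 of 107525 were called higher. Tiles that overlapped a KZFP gene by any length were called in 12 of 83 cases and tiles that overlapped none in 15 of 147. The 12 include the tiles at chr19:57100001-57105000 and chr19:58105001-58110000, which reach only the last bases of ZNF470 (end at 57100279) and ZIK1 (end at 58105258). Calls were thus made both over and outside KZFP genes.

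**Figure D3:**
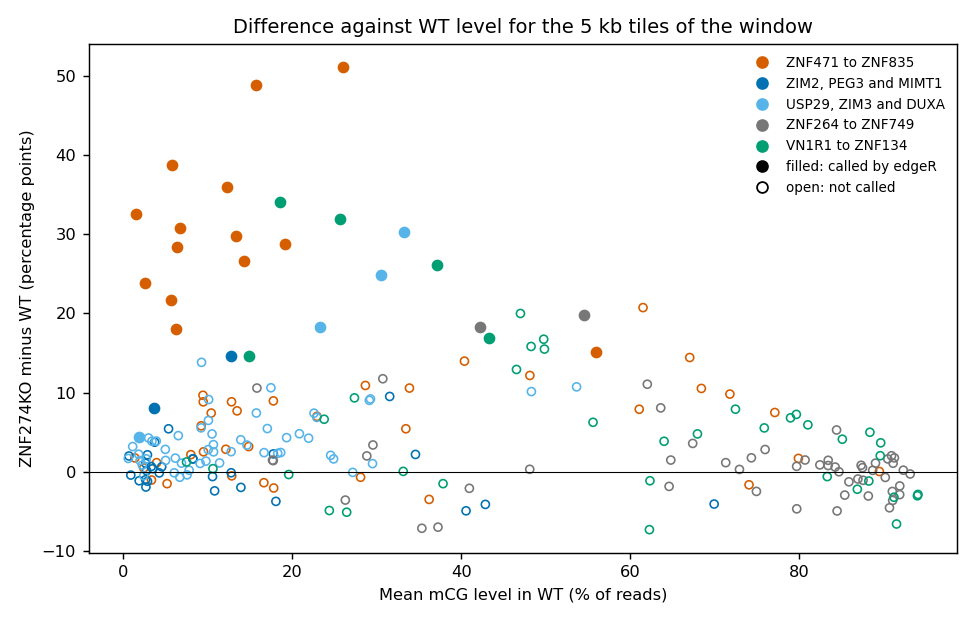
ZNF274KO minus WT in percentage points against the mean WT mCG level (% of reads) for the 230 tiles, coloured by block, filled where called by edgeR. The filled points lie at WT levels below 60%, and those of the ZNF471 to ZNF835 block reach 51.1 points.

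Among the 38 protein-coding gene bodies (start to end of the gene) that overlap the window, 4 were called higher and 0 lower by edgeR, against 0.878% higher and 0.0454% lower over 19828 gene bodies. These were 3 KZFP genes of 22, ZNF471, ZFP28 and ZIK1, and DUXA. ZNF471 rose from 11.0% and 11.9% to 35.6% and 25.8%, or by 19.3 points (edgeR adjusted p = 0.0005). DUXA rose from 29.1% and 29.2% to 59.8% and 46.8%, or by 24.2 points (edgeR adjusted p = 0.0021). ZIK1 rose from 24.6% and 26.3% to 44.9% and 40.8% (edgeR adjusted p = 0.0017), and ZFP28 from 44.3% and 44.1% to 68.8% and 56.2% (edgeR adjusted p = 0.047). In none of the 4 did the groups overlap. Over all 38 bodies, the ZNF274KO libraries lay entirely above WT in 16 (9.09% of gene bodies in the genome) and entirely below in 5 (30.6%). Their neighbours ZNF470, at 32.5%, 34.6%, 51.2% and 43.0%, and ZNF835, a C2H2 gene with no listed KRAB box, at 51.1%, 50.7%, 69.2% and 60.1%, did not pass (edgeR adjusted p = 0.088 and 0.067). Without ZNF274KO 1, the call of ZNF471 alone was left, and limma called 0 of the 38 bodies. ZFP28 was not called after centring each library on its genome-wide level.

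The gene bodies between ZNF264 and ZNF749 were at higher levels in all libraries. Bodies were assigned to blocks by their middle, which puts ZNF749 in the next block. It stood at 68.0%, 61.5%, 67.8% and 58.0% in WT 1, WT 2, ZNF274KO 1 and ZNF274KO 2. All 8 KZFP genes assigned here had mean levels between 53.6% and 75.8% in WT and between 49.9% and 73.7% in ZNF274KO. Their differences ran from -4.87 to 4.51 points, and 0 of 13 bodies of the block were called. ZNF264 had the lowest of these differences, at 74.9%, 76.7%, 71.5% and 70.4% in WT 1, WT 2, ZNF274KO 1 and ZNF274KO 2 (edgeR adjusted p = 0.56). AURKC, a kinase gene used in meiosis, stood at 68.5%, 63.6%, 66.0% and 68.5%, and its groups overlapped. The bodies of several genes here overlap those of read-through gene models that have no symbol, which were counted as members and share their reads.

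Most finger exons were highly methylated in every library, and the only one called, that of ZNF471, was nearly unmethylated in WT. Taken as the longest coding exon of each gene, 29 members had enough reads and CpGs to be tested, among them 21 KZFP genes, and 7 did not. The ZNF274KO libraries lay entirely above WT in 10 (12.6% of all exons tested) and entirely below in 2 (21.8%). The median WT mean was 89.3% over the 21 KZFP exons and 85.8% over the 14543 exons tested in the genome, so high levels were common there as well. In 16 of the 21 KZFP genes this exon was above 80% in all 4 libraries, as in ZNF460, at 91.9%, 93.9%, 92.8% and 93.2%. The exceptions were ZNF471, ZFP28, ZNF470, ZIM3 and ZIK1. The ZNF471 exon, with 8 CpGs, was at 1.19% and 0.0% in WT 1 and WT 2 and at 31.9% and 18.0% in ZNF274KO 1 and ZNF274KO 2. It was the only exon of the window that was called (edgeR adjusted p = 0.018), against 0.433% called higher and 0.0138% lower of 14543 exons, and the call was lost without WT 1, without WT 2, without ZNF274KO 1 and with limma. The ZFP28 exon had the larger rise, from 37.8% and 39.7% to 84.1% and 63.1%, or by 34.9 points, and did not pass (edgeR adjusted p = 0.063). After centring, it passed. The ZIK1 exon stood at 16.9%, 13.0%, 42.9% and 29.8% (edgeR adjusted p = 0.35), and the ZNF470 exon was at 72.9%, 78.0%, 80.5% and 81.4%. ZIM3, a KZFP gene whose KRAB domain is widely used as a repressor in genome engineering, had exon levels of 11.7%, 7.14%, 24.2% and 8.08%, with overlapping groups. Similar finger exons can share reads, so values of single genes are uncertain to that extent.

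Most KZFP gene starts were little methylated. Taken as 1 kb either side of the start, 0 of 38 promoters were called by edgeR (6 at an unadjusted p under 0.05, as were 1179 of the 19746 promoters of the genome), against 0.167% higher and 0.0557% lower of 19746 promoters. The ZNF274KO libraries lay entirely above WT in 8 (14.2% of all promoters) and entirely below in 14 (20.8%). Some promoters overlap and share reads, so these are not counts of separate stretches. Among those below, PEG3 and ZIM2 have identical values, and the promoters of ZIK1 and ZNF416 overlap. The starts of 18 of the 22 KZFP genes were below 20% in all 4 libraries. Low starts were common in the genome as well: the median WT mean was 11.7% over these 22 promoters and 17.3% over the 19746. ZNF471, whose body rose, had a promoter at 26.7%, 28.4%, 31.1% and 24.8% in WT 1, WT 2, ZNF274KO 1 and ZNF274KO 2. The ZFP28 promoter stood at 14.1%, 10.1%, 9.46% and 13.4%, and that of ZIK1 at 9.48%, 9.64%, 6.40% and 5.52%. The promoters of these genes thus did not share the difference of their bodies. DUXA and ZNF211 had the largest differences. DUXA stood at 33.6%, 36.4%, 65.2% and 52.1% (edgeR adjusted p = 0.19), and ZNF211, a KZFP gene at the telomere edge, at 63.9%, 71.7%, 90.1% and 79.9% (edgeR adjusted p = 0.35). Neither promoter passed in this fit. Both were called once a replicate block, a term for the library number, was added (edgeR adjusted p = 0.0146 and 0.0196). The labels do not say that same-numbered libraries belong together. A fit without ZNF274KO 2, with 1 ZNF274KO library left, carries no spread within that group. That of VN1R1, which encodes a receptor of the vomeronasal family, was at 66.2%, 67.1%, 82.1% and 77.8%, and that of SMIM17, which encodes a small membrane protein, was at 48.0%, 46.7%, 36.2% and 41.2%.

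**Figure D4:**
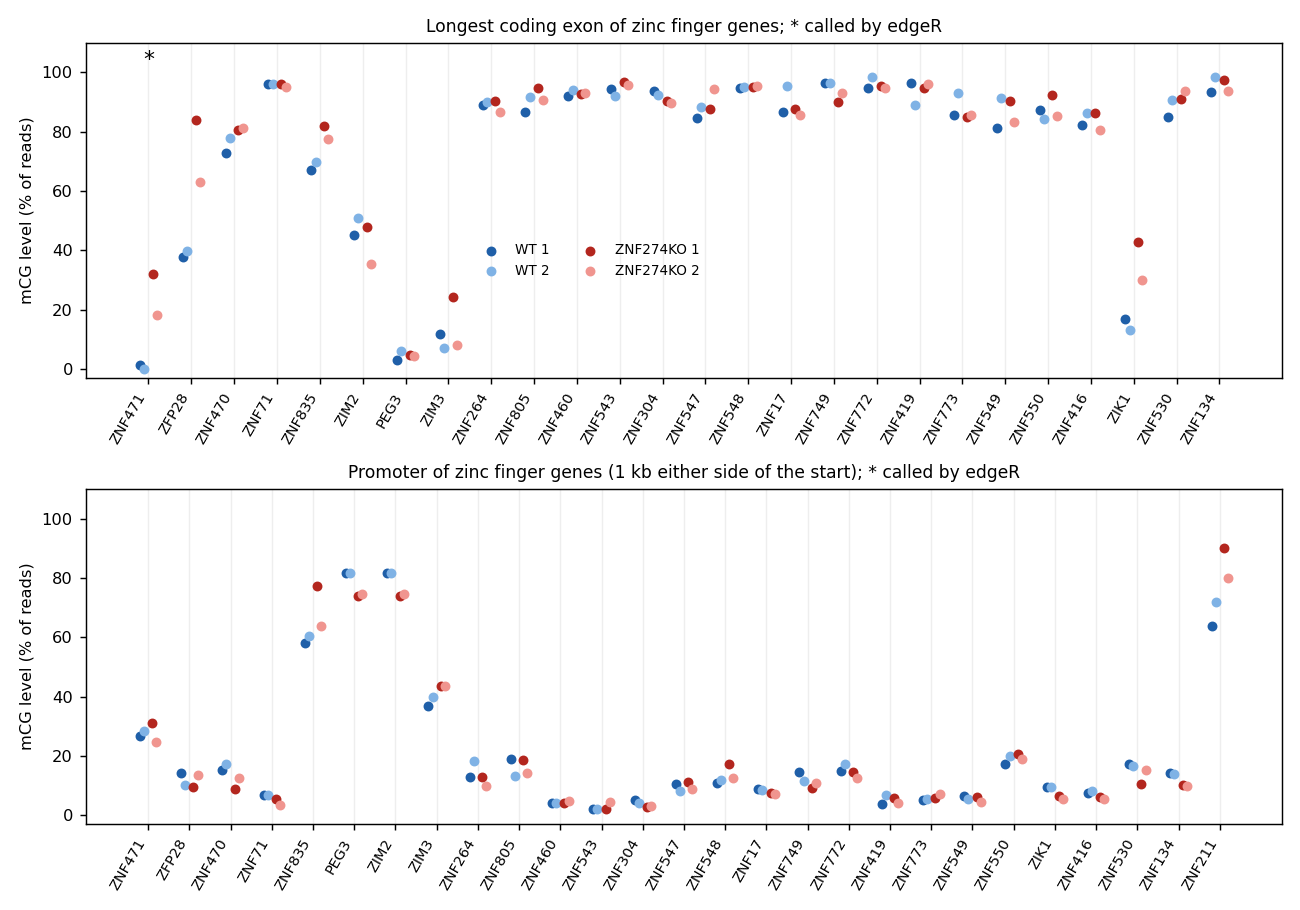
mCG level (% of reads) of each library for the longest coding exon (upper panel) and for the promoter, 1 kb either side of the start (lower panel), of the zinc finger genes of the window in chromosomal order. Points are libraries and the asterisk marks the 1 exon called by edgeR, ZNF471, from 1.19% and 0.0% to 31.9% and 18.0%.

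No tested promoter, exon or gene body of the imprinted domain was called. The PEG3 promoter stood at 81.7%, 81.6%, 74.0% and 74.5% in WT 1, WT 2, ZNF274KO 1 and ZNF274KO 2, lower by 7.41 points in ZNF274KO on average with no overlap (WT 81.7% ± 0.0375, ZNF274KO 74.3% ± 0.397, SD, n = 2, edgeR adjusted p = 0.84). The difference was -3.70 points with 500 bases either side of the start and -3.74 points as an unweighted mean over CpGs. In the 250 bases before the start printed above, over 36 to 141 reads, the ZNF274KO libraries were instead the higher ones. The 500 bases before the start, which contain that stretch, stood at 62.5%, 67.5%, 60.7% and 56.5%, with ZNF274KO below WT. A lower level was thus seen in most but not every part of the promoter. ZIM2 shares this promoter and has the same values. The authors describe HEK293T cells as triploid but do not say how many copies of this region came from each parent. The number of copies of each parental chromosome was not tested here. For that reason no level that methylation of the copies of a single parent would give is set beside these values. Single CpGs were unevenly methylated: of 107 CpGs with at least 10 WT reads, 79 were above 75%, 21 between 25% and 75% and 7 below 25%. In ZNF274KO, of 86 such CpGs, 55 were above 75%, 21 in between and 10 below. These classes pool the libraries of a group and were not tested. The 5 kb tile at the start read 70.9%, 68.9%, 65.4% and 66.2% (edgeR adjusted p = 0.86).

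Methylation around the start had a defined extent. In the first 500 bases of the gene it was 94.1%, 94.4%, 90.9% and 89.0% in WT 1, WT 2, ZNF274KO 1 and ZNF274KO 2, and in the next 500 bases 85.5%, 86.0%, 79.8% and 77.7%, so that WT was above ZNF274KO without overlap in each. The same order, without overlap, held in the 500 bases before the start and from 3000 to 3500 bases, the latter at 36.6%, 44.9%, 30.6% and 34.6%. From 4000 to 4500 bases the order was the other way, at 14.7%, 28.1%, 28.3% and 44.2%, as it was from 1500 to 1000 bases before the start, at 20.4%, 8.7%, 21.4% and 32.3%. From 1000 to 1500 bases the levels dipped to 50.3%, 40.9%, 34.4% and 52.4%. From 1500 to 2000 bases they were 76.9%, 72.6%, 75.3% and 72.6%, and from 4500 to 5000 bases 1.9%, 0.0%, 5.4% and 4.8%, again with ZNF274KO above WT. ZNF274KO also lay above WT without overlap from 6000 to 6500 bases (0.0%, 0.0%, 17.4% and 5.1%) and from 7000 to 7500 bases (0.0%, 0.0%, 9.8% and 6.3%). The same held from 9500 to 10000 bases (0.0%, 0.0%, 6.25% and 4.8%). These bins hold 16 to 421 reads per library, and none was tested. Beyond 5 kb the PEG3 gene was at 3.70%, 6.19%, 6.22% and 5.44% over 264 CpGs. The long last coding exon, which encodes the fingers of PEG3, was at 2.91%, 5.99%, 4.60% and 4.31%, unlike the highly methylated finger exons of most KZFP genes. The bodies of PEG3 (29.1%, 29.5%, 27.9% and 29.0%) and ZIM2 (22.4%, 22.6%, 22.5% and 23.3%) combine these parts, and neither was called (edgeR adjusted p = 0.93 and 0.96). The MIMT1 gene, transcribed away from PEG3 on the other strand, stood at 22.8%, 24.2%, 20.3% and 23.7%.

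**Figure D5:**
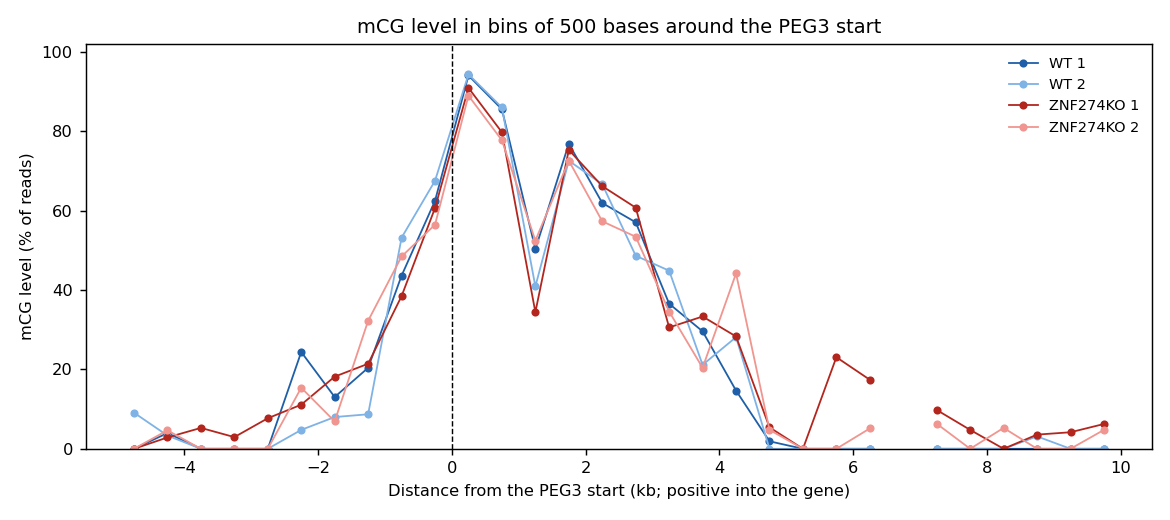
mCG level (% of reads) of the 4 libraries in bins of 500 bases from 5 kb before to 10 kb after the PEG3 start, positive into the gene. In all libraries the level peaks in the first bin (94.1%, 94.4%, 90.9% and 89.0%). From 4500 to 5000 bases it is 1.9%, 0.0%, 5.4% and 4.8%, with 10 CpGs or fewer in each bin beyond.

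The first intron of PEG3 is known for repeated sites of YY1, a zinc finger factor that can activate or repress. AANATGGC, searched on both strands with overlaps allowed, matched 10 times within 2500 bases either side of the PEG3 start. All 10 matches lay downstream of the start, 410 to 2393 bases into the gene, and all read in one direction, on the plus strand. Of 20074 gene starts with a window of this length, 60.3% held at least 1 match, the median was 1, and 2 held 10 or more. These were PEG3 and ZIM2, which share the window. Of these, 4 lay in the less methylated bin from 1000 to 1500 bases, and the printed intron stretch holds 3 of the others.

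USP29 encodes a deubiquitinase and, in the embryo, is expressed from the paternal copy along with PEG3. Its body stood at 22.9%, 27.3%, 37.4% and 28.1% in WT 1, WT 2, ZNF274KO 1 and ZNF274KO 2, and its promoter at 53.7%, 55.1%, 73.5% and 59.7%. Neither was called (edgeR adjusted p = 0.61 and 0.82), and ZNF274KO 2 lay close to WT in both. The body of ZIM3 stood at 21.9%, 17.0%, 24.3% and 21.5%, with overlapping groups. The 2 called tiles of the PEG3 block lay at chr19:57260001-57265000, at 13.2%, 12.2%, 31.3% and 23.3%, and at chr19:57380001-57385000, at 3.21%, 4.08%, 15.9% and 7.65%, both outside protein-coding genes. Neither was called without ZNF274KO 1 (edgeR adjusted p = 0.14 and 0.71), where the difference of the second was 4.01 in place of 8.12 points, and the second was not called when CpGs needed at least 3 reads in every library (edgeR adjusted p = 0.058).

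The window was set against its neighbours on the chromosome. The stretch on the telomere side, taken without the surroundings of ZNF274, stood at 54.3%, 54.0%, 66.3% and 63.0% in WT 1, WT 2, ZNF274KO 1 and ZNF274KO 2, and 66 of its 183 tiles were called higher and 3 lower. In WT the window lay below it by 18.1 and 17.5 points, and in ZNF274KO by 23.2 and 23.7 points. The gap thus widened by 5.69 points, with no overlap between groups (exact permutation p = 0.333). The 1 Mb on the centromere side stood at 50.8%, 51.6%, 54.1% and 52.6%, with 17 of 200 tiles called higher and 0 lower. The window lay below that stretch by 14.6 and 15.0 points in WT and by 10.9 and 13.3 points in ZNF274KO.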

How the data were processed

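EM-seq protects methylated cytosines enzymatically and deaminates the others. The authors mapped the reads with Msuite2 and HISAT2 to hg19 plus rDNA, and deposited counts of C and T reads per CpG and strand for each library, neither pooled nor normalized. Filters on duplicates and mapping quality were not given in the sources used here. Groups and numbers follow the labels.

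Counts were summed over 5 kb tiles, gene bodies, promoters and longest coding exons of GENCODE protein-coding genes. All 15692 CpGs of the window fell on a CG of GRCh37. Regions with at least 20 reads and 5 CpGs per library were tested genome-wide with edgeR 4.0.16 in R 4.3.3 (quasi-likelihood, 1 coefficient per library, methylation log-odds per group, Benjamini-Hochberg). The test was also run on simulated reads, where the spread between libraries was set equal in both groups, unlike in the called tiles. Levels were compared by exact permutation. The alternatives included limma 3.58.1 (log2 ratios, pseudocount 1). Python 3.11.15, numpy 2.4.6, pandas 2.3.3 and matplotlib 3.10.9 were used. Depth covers counting error only.

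Members, blocks and gene lists were chosen with earlier results of these data known. Named were, of the called tiles with 20 or more CpGs, the 10 that rose most (0 fell), the PEG3 promoter tile, all called genes, and PEG3, ZIM2, MIMT1, USP29, ZIM3, DUXA, ZNF264 and AURKC. Others, both exon sequences and the intron sequence were chosen after their values were seen.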

Additional observations from a re-analysis of the deposited data

How the results depend on the processing

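The 27 called tiles were called by edgeR at minimums of 10 and 50 reads, without CpGs over 5 times the median depth, and after centring (31 tiles called). With at least 3 reads per CpG in every library, 24 of the 27 were called, and without ZNF274KO 1, 18 were. limma called 4 tiles and 0 gene bodies and exons. Tiles of 10 kb gave 13 calls and tiles of 2.5 kb 51. Centring gave 2 exons. Leaving out 1 library gave 19 to 44 tiles, 1 to 6 gene bodies, 0 to 2 promoters and 0 to 2 exons, and differences of -0.703 to 2.70 points in the block from ZNF264 to ZNF749. The sign turned without ZNF274KO 1. A fit without 1 library has 1 library left in a group, so its calls carry no spread within that group.

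Same-numbered libraries did not deviate together, with r = -0.108 over 563514 tiles and 0.0172 over the 230. These values cannot show whether such libraries were grown or prepared together. With a replicate block, 42 tiles, 6 gene bodies, 2 promoters (DUXA and ZNF211) and 2 exons were called. With crossed numbers, chosen after seeing the data, there were 47 tiles (46 higher and 1 lower), 6 gene bodies, 2 promoters and 2 exons. With a depth of 8 to 10 reads per CpG, single CpGs were not tested, and exons with few CpGs rest on few reads.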
